A study of Homo sapiens with 12 samples.

Results

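The MYC network is a family of transcription factor genes built around MYC and its partner MAX, and 10 loci of it were described here from 2 lists of chromatin immunoprecipitation (ChIP-seq) peaks. The members were the MYC paralogs MYC, MYCN and MYCL, the shared partner MAX, the antagonists MXI1, MXD1, MXD4 and MNT, the MAX-like factor MLX, and PVT1, a long noncoding RNA (lncRNA) gene beside MYC. They were chosen by name, 10 of 59792 genes in the RefSeq table of GRCh38.p14, and all peaks that overlapped a gene or the 10 kb around it were taken. For MYC and PVT1 the peaks of 1.5 Mb of chromosome 8 were added, from 0.735 Mb below MYC to 0.399 Mb above PVT1. The cells were U2OS, a human osteosarcoma line, with a tet-on transgene for a Flag-tagged nuclease-dead protein, which in 1 line was REXO4-D386A, of the RNA exonuclease family, and in the other RNaseH1-D210N, of the enzyme that cuts the RNA of RNA:DNA hybrids. Each line was grown with doxycycline at 1 µg/ml for about 60 h or without it, and each of these conditions had 2 anti-Flag ChIP libraries and 1 input library, 12 libraries in all. The study asked whether these proteins bind R-loops. The values were 1 peak list per protein, with no value per library, so no replicate error could be given, no comparison below carries a test, and the libraries behind each list are not known.

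MYC, MYCN and MYCL bind DNA as dimers with MAX at the E-box CACGTG and activate genes of growth and ribosome production. MXI1, MXD1, MXD4 and MNT compete for MAX and recruit SIN3 corepressors, and MLX forms a parallel set of dimers with some of the same antagonists and with the glucose-responsive factors MLXIP and MLXIPL. In an R-loop, RNA pairs with its DNA template and leaves the opposite DNA strand single. R-loops are known to form just downstream of the starts of transcribed GC-rich genes, and a nuclease-dead RNase H1 binds hybrids without cutting them.

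The 250 bases before 4 starts are shown, those of MXD4, MNT, MLX and MYCN. At MXD4 peaks of both proteins met at the start, MNT had the widest peak of the members, MLX likewise has an E-box before its start, and MYCN was the member without a peak. The bases run 5′ to 3′ along transcription in RefSeq's GRCh38.p14, and capitals mark CACGTG, which reads the same on both strands. The windows are chr4:2262110-2262359 on the minus strand for MXD4, chr17:2401061-2401310 on the minus strand for MNT, chr17:42566850-42567099 on the plus strand for MLX and chr2:15940300-15940549 on the plus strand for MYCN.
MXD4: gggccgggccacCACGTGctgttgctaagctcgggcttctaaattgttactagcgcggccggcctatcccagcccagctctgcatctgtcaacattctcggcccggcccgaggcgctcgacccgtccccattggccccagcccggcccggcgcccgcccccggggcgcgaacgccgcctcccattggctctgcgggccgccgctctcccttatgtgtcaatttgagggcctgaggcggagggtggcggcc
MNT: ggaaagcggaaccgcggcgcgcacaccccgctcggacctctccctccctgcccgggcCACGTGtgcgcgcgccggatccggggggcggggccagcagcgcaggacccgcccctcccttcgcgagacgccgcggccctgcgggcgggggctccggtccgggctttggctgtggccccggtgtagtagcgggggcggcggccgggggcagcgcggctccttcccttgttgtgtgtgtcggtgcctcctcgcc
MLX: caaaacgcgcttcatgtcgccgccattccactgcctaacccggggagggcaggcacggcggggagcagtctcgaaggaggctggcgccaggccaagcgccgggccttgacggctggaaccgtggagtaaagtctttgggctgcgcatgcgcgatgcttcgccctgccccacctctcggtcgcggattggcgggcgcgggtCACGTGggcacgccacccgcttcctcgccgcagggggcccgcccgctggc
MYCN: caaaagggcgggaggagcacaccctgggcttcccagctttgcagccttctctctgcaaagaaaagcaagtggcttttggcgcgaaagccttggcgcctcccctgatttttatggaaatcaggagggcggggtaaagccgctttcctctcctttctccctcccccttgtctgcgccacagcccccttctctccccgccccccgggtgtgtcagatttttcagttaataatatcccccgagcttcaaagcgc

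Of the 11 starts that the promoter table gives for 8 members, those of MXD4, MNT and MLX held CACGTG in the 300 bases from 250 before to 50 after the start. Counted from the start, the first base of the motif lay at -238 in MXD4, at -193 in MNT and at -50 in MLX. Of all 35116 promoters of the table, 7.26% held the motif, and of the 22199 promoters of protein-coding genes 8.34% did. The table held no promoter of MYC or PVT1. The match is to letters and is no evidence of binding. The promoters of MYCL, MAX, MXI1 and MXD1 held no CACGTG, and each of them overlapped an RNaseH1 peak. So did those of MXD4, MNT and MLX, which held it, while that of MYCN had neither. The share of all promoters with such an overlap was not counted. By the narrower measure of the start base, a peak covered 53.0% of starts of protein-coding genes. A relation of motif and peak was not tested. MNT had the highest GC content of the 11 promoters at 76.0% (as high in 7.83% of all promoters), and the promoter of MXI1 start 1 had the lowest at 55.0%. MYCN stood at 58.7%, which is the median of all promoters. The excess of G over C on the coding strand, as a share of both, was highest at MAX start 1 and MXD1, at 0.211 and 0.210 against a median of 0.0122 for all promoters. It was below 0 at MYCN (-0.0795), at MXI1 start 1 (-0.0667) and start 2 (-0.177), and at MXD4 (-0.0323).

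RNaseH1 peaks lay at 9 of the 10 members and REXO4 peaks at 2 of them. In the gene and 10 kb around it, 8 of the 9 protein-coding members had an RNaseH1 peak, and 85.1% of all 19866 protein-coding genes did. PVT1 had one too, as did 52.7% of lncRNA genes. These counts are near the background, so the presence of a peak says little about the members. Fewer short genes had a peak. Of the 4 protein-coding members of at most 10 kb, MYC, MYCL and MLX had an RNaseH1 peak and MYCN had none, while 72.5% of 5582 such genes had one. No REXO4 peak lay at these 4, and 5.14% of such genes had one. REXO4 peaks lay at MXD4 and PVT1, while 7.01% of protein-coding and 2.8% of lncRNA genes had one. With 1 kb around the gene the same counts of 9 and 2 members were found, beside 78.5% and 5.5% of protein-coding genes and 37.4% and 1.67% of lncRNA genes for RNaseH1 and REXO4. At starts, 7 of 8 protein-coding members in the promoter table had an RNaseH1 peak within 1 kb, and 68.7% of 15843 such genes did. A REXO4 peak lay within 1 kb of the start at MXD4 alone of these 8, and at 3.89% of those genes. Since MYC and PVT1 have no start in that table, both boundaries of these genes were used. Each had an RNaseH1 peak within 1 kb of its lower boundary and none at its upper one, and both genes are transcribed toward higher coordinates. Over all genes, 67.1% of protein-coding and 27.2% of lncRNA genes had an RNaseH1 peak within 1 kb of a boundary. PVT1 also had a REXO4 peak there, MYC had none, and 3.82% of protein-coding and 1.26% of lncRNA genes had one.

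In all there were 1460 REXO4 peaks and 54623 RNaseH1 peaks. The fold enrichment of a peak is the authors' value, read as the fragments at its summit over the expected pileup, each with 1 added. It had a median of 2.30 over the REXO4 peaks and of 3.07 over the RNaseH1 peaks, and folds are ranked within a list only. Over the 45 RNaseH1 peaks of the members the fold had a median of 3.02 and quartiles of 2.70 and 3.35, and 22 of them lay above the list's median. The quartiles of the whole list were 2.64 and 3.60. In width the members' peaks had a median of 530 bp and the whole list one of 365 bp, and 11 of the 45 (24.4%) were at least 1 kb wide, as were 9.90% of the list. They rested on a median of 47 fragments against an expected 14.3. A median peak of the list rested on 23 fragments against an expected 7.14. All intervals below are 95% exact Poisson intervals of the fragments and cover their counting error only. The expected pileup was taken as exact, so its own error is left out.

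**Figure D1:**
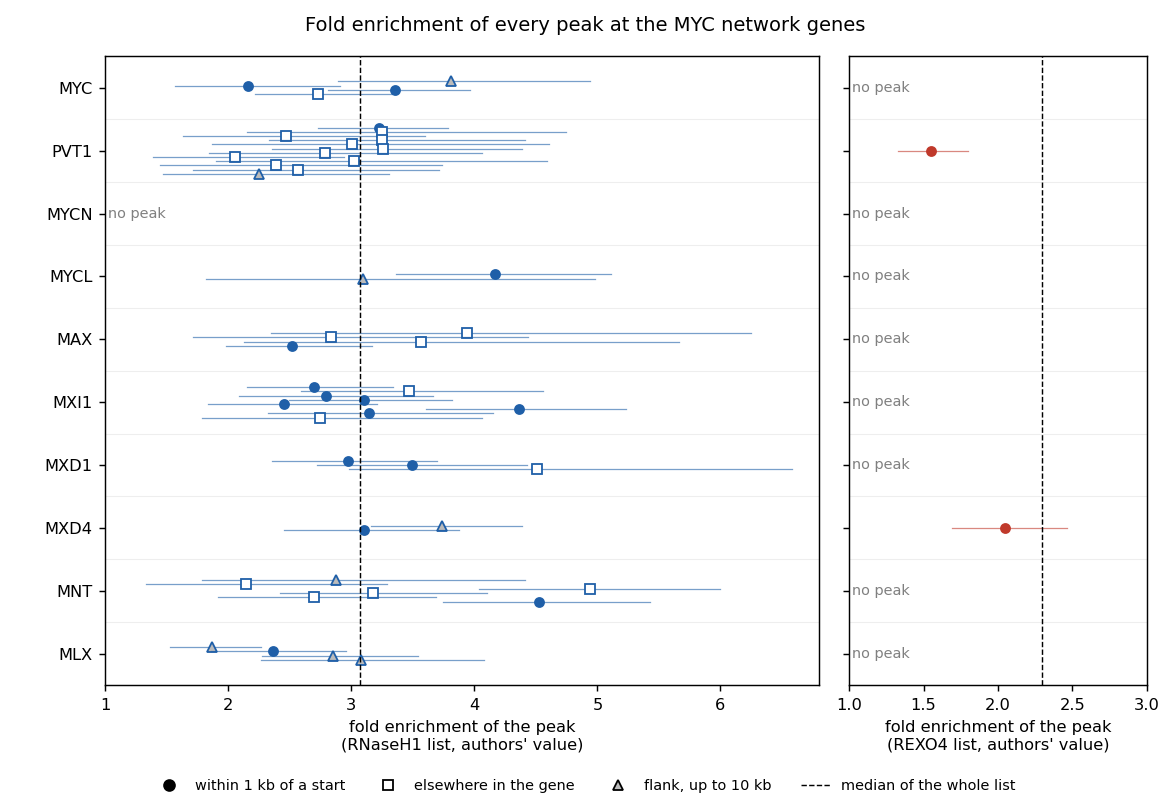
Fold enrichment of each peak (x axis, authors' value) at the 10 MYC network genes (y axis), with the RNaseH1 list on the left and the REXO4 list on the right. Symbols mark the position of the peak, and dashed lines are the medians of the whole lists, 3.07 and 2.30. Bars are 95% exact Poisson intervals of the fragments, with the expected pileup taken as exact. RNaseH1 folds of the members ran between 1.87 and 4.94, MYCN had no peak in either list, and REXO4 peaks stood at PVT1 and MXD4.

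MYC carried 4 RNaseH1 peaks packed around its promoter and the first part of the gene. Of protein-coding genes of 0.5 to 2 times its length, 22.1% had as many in the gene and 10 kb around it. MYC encodes the best known factor of the network and lies on chromosome 8 from 127735434 to 127742951. Counted from the lower boundary, the peaks reached from -1493 bp to 3663 bp, and 4056 of these 5157 bp were inside a peak. The peak farthest upstream (127733941 to 127734316) had the highest fold of the 4, 3.81 (2.89 to 4.94), with 55 fragments against an expected 13.7, and its summit lay within 1 kb of a boundary of the lncRNA gene CASC11. The next (127734860 to 127735389) was the weakest, with a fold of 2.16 (1.56 to 2.91) and a summit at -145 bp. The peak inside the gene from 127735572 to 127736580 had the lowest q of the 4, 3.79e-29, with a fold of 3.35 (2.81 to 3.96), 134 fragments and a summit 923 bp into the gene. The last (127736957 to 127739097) was 2141 bp wide, a width reached by 0.348% of the list, with a fold of 2.73 (2.22 to 3.33). The boundary base itself was in no peak. The 3854 bp beyond the last peak held none either. No REXO4 peak lay at MYC, and the nearest was 51308 bp away, at PVT1.

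By the share of its bases inside RNaseH1 peaks, MYC led the members with 41.9%. MNT followed with 28.6%, MYCL with 14.7% and MLX with 9.32%. Among 5108 protein-coding genes of 0.5 to 2 times the length of MYC the median share was 4.56%, and 0.489% of them reached that of MYC. Among 6809 genes of like length to MNT the median was 2.87%, and 0.250% reached its share. The other members stood less far from genes of their length: MXI1 at 5.45% was reached by 2.62% of such genes, MYCL by 15.4%, MAX (2.08%) by 20.9%, MXD4 (6.17%) by 24.7%, MLX by 31.3% and MXD1 (3.23%) by 32.9%. Genes were not matched on expression, and no RNA measurement was analysed here. The share depends on peak width as well as number, and its relation to transcription was not tested. In peak number, MXI1 was reached by 6.88% of genes of its length, MNT by 8.64%, MLX by 21.6% and MAX by 36.4%. MXD1 was reached by 42.6%, MYCL by 55.6% and MXD4 by 61.1%.

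**Figure D2:**
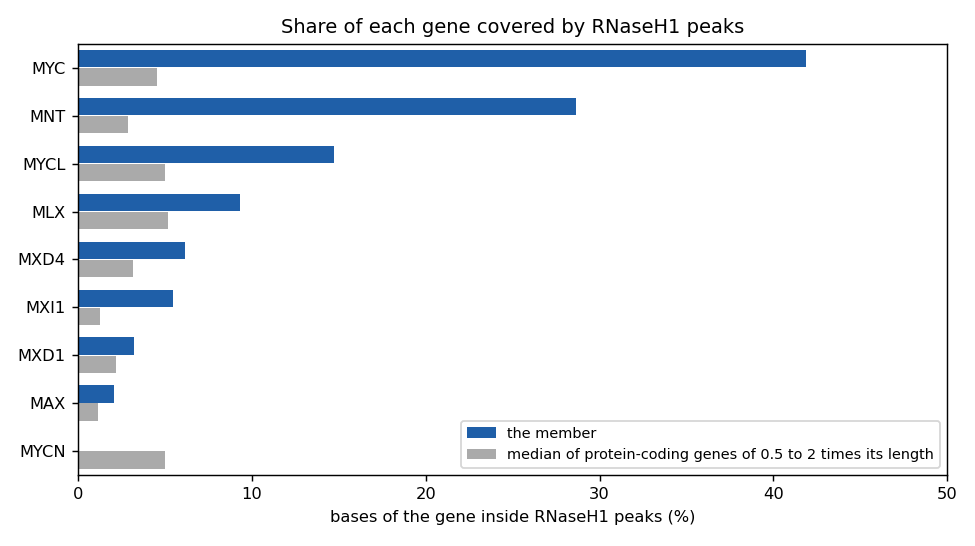
Share of the bases of each protein-coding member inside RNaseH1 peaks (x axis, percent), beside the median share of protein-coding genes of 0.5 to 2 times its length. MYC (41.9%) and MNT (28.6%) stand highest, their like-length medians are 4.56% and 2.87%, and MYCN is at 0.

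PVT1 had a peak of both proteins at its lower boundary and a chain of small RNaseH1 peaks along the gene. This lncRNA gene, host of several microRNAs and often gained together with MYC in tumours, spans 306733 bp from 127794524 to 128101256. The RNaseH1 peak at the boundary (127794086 to 127794811) had a fold of 3.22 (2.73 to 3.78), with 148 fragments against an expected 45.2, and a q of 2.18e-30. The REXO4 peak there (127794259 to 127794552) lay wholly inside it, with summits 42 bp apart. Its fold was 1.55 (1.33 to 1.80), with 172 fragments against an expected 110.4 and a q of 0.000174, which placed it low in the REXO4 list (4.66% of that list had as low a fold). Another 10 RNaseH1 peaks lay inside PVT1 and 1 in the flank beyond its upper boundary, with folds from 2.06 to 3.25. They rested on 17 to 41 fragments, fewer than the boundary peak. The 12 peaks in all were reached by 0.0999% of lncRNA genes and by 1.16% of the 518 lncRNA genes of like length, which had a median of 1. Of the bases of PVT1, 1.24% were inside a peak, while lncRNA genes of like length had a median of 0.144% and 3.09% of them reached the share of PVT1.

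Across the 1.5 Mb around MYC and PVT1 there were 36 RNaseH1 and 2 REXO4 peaks. Windows of 1.5 Mb along chromosome 8 held a median of 21 RNaseH1 peaks, and 20 of 96 such windows held at least 36. For REXO4 the median was 0, and 13 of 96 windows (13.5%) held at least 2. The 36 peaks had a median fold of 2.79 and a median expected pileup of 8.93, against 3.02 and 7.74 over chromosome 8. The expected pileup follows local depth, and DNA copy number was not analysed here. Between MYC and the lower edge of the region lay 17 summits (23.1 per Mb), among them those of the MYC peaks at -1.335 and -0.145 kb. MYC held 2 summits in 7518 bp, and 3 lay between MYC and PVT1 (58.2 per Mb). PVT1 held 10 summits (32.6 per Mb). Beyond PVT1 there were 4 (10.03 per Mb). The highest folds of the region were away from MYC, with 5.25 (3.41 to 7.77) inside the lncRNA gene LOC105375751, at -728 kb from the lower boundary of MYC. Next came 4.82 (3.53 to 6.44) outside annotated genes, at -530 kb. These folds rested on 23 and 44 fragments. Both intervals overlapped that of the highest peak at MYC (2.89 to 4.94).

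Some of the lncRNA genes of the region carried RNaseH1 peaks as well. CASC21 overlapped 3 peaks (highest fold 3.02), CASC8 3 (3.49), CASC11 3 (3.81, the peak upstream of MYC) and LOC105375754 1 (2.79). The peak in CASC8 at 2.82 also lay in POU5F1B, a retrogene of the pluripotency factor gene POU5F1. On the far side of PVT1, LOC124902020 overlapped 1 peak of fold 3.38. PCAT1, PCAT2, PRNCR1, CASC19, CCAT1, CCAT2 and LINC00824 overlapped none, nor did the microRNA genes MIR1204 to MIR1208. The other REXO4 peak of the region lay in CASC21, from 127262712 to 127263021, with a fold of 4.17 at an expected pileup of 4.28, and overlapped an RNaseH1 peak of fold 2.55. Its fold was higher than that of the PVT1 peak, on an expected pileup lower than the 110.4 there.

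**Figure D3:**
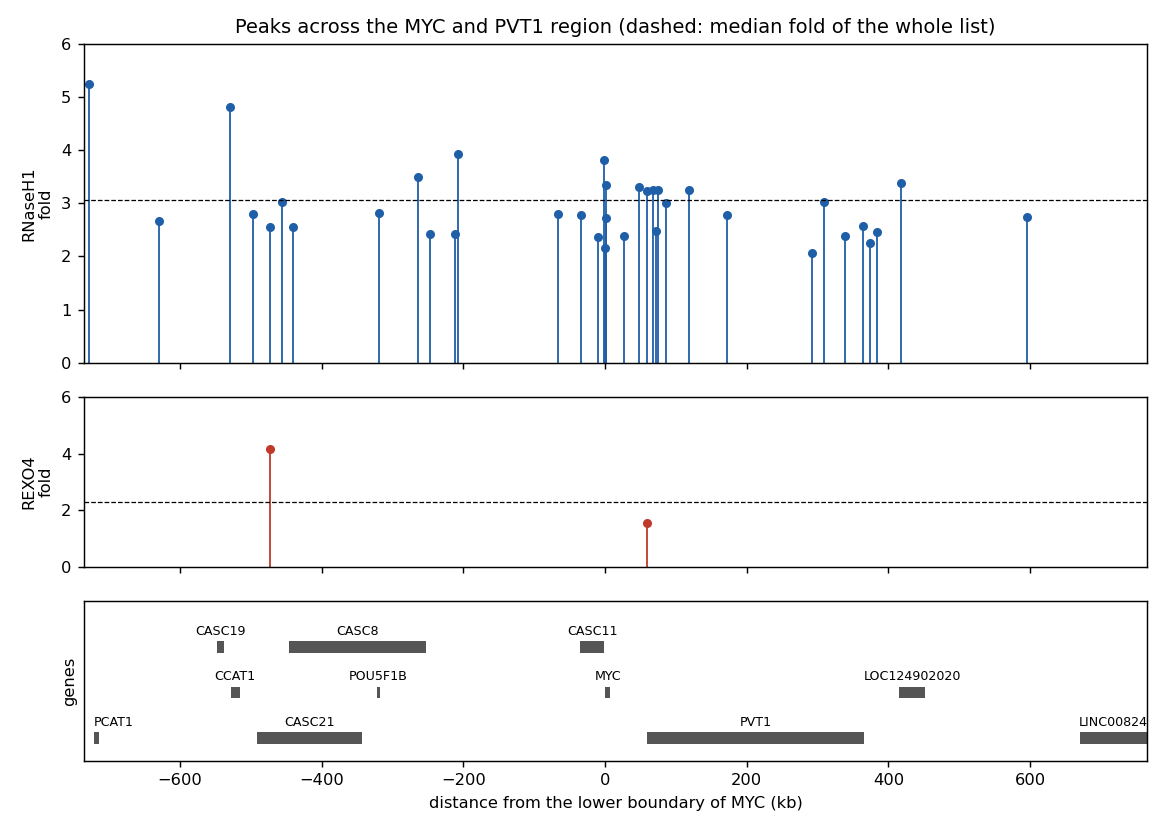
Fold enrichment (y axis) of the 36 RNaseH1 peaks and 2 REXO4 peaks across 1.5 Mb of chromosome 8, by the distance of the summit from the lower boundary of MYC (x axis, kb), with selected genes as bars. Dashed lines are the list medians of 3.07 and 2.30, the 4 peaks at MYC crowd at 0 kb, and the REXO4 peaks stand in CASC21 and at the boundary of PVT1.

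The paralogs of MYC differed. MYCN, the paralog best known from neuroblastoma (chromosome 2, 15940550 to 15947004), had no peak of either protein in the gene or 10 kb around it. The nearest RNaseH1 peak was 49197 bp away, with a fold of 3.29, and the nearest REXO4 peak was 4595849 bp away. Of 4679 protein-coding genes of like length, 20.6% also had no RNaseH1 peak in this window. A peak list holds only what passed the authors' threshold, so a signal below it would not be seen. MYCL, first found in small cell lung cancer (chromosome 1, 39895428 to 39901917, minus strand), had an RNaseH1 peak of 1614 bp across its start (39900962 to 39902575). Its fold was 4.17 (3.36 to 5.11), with 90 fragments against an expected 20.8, and the summit lay 140 bp downstream of the start. A weaker peak stood upstream, at -8961 bp, with a fold of 3.10 (1.82 to 4.98) and 15 fragments.

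MAX, the obligate partner of the MYC proteins (chromosome 14, 65006101 to 65102695, minus strand), had 4 RNaseH1 peaks. The widest, 1420 bp, covered 1 of its 2 annotated starts, with a fold of 2.52 (1.98 to 3.16) on 72 fragments. The other 3 lay 25498 to 53798 bp from the nearest start inside the gene, with folds of 3.57 (2.13 to 5.66), 2.83 (1.72 to 4.44) and 3.94 (2.35 to 6.25). These folds rested on 16 or 17 fragments each, and all 3 intervals overlapped that of the start peak. MLX (chromosome 17, 42567100 to 42573203, plus strand), which pairs with MLXIP and MLXIPL, had 1 peak that overlapped the gene, at the start, with a fold of 2.36 (1.86 to 2.96). The gene COASY, of coenzyme A synthesis, has a boundary less than 1 kb from that summit. The 3 flank peaks had summits within 1 kb of a boundary of COASY or of PSMC3IP, a meiotic recombination cofactor gene, with folds of 1.87, 2.85 and 3.07.

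The antagonist genes all carried RNaseH1 peaks at their starts. MXI1 (chromosome 10, 110207605 to 110287365, plus strand) had 8, of which 6 lay within 1 kb of its 3 annotated starts. The strongest covered start 3 at 110225996, with a fold of 4.36 (3.61 to 5.23), 115 fragments against an expected 25.6 and a q of 4.71e-35. At start 1 the fold was 2.70 (2.15 to 3.34). This interval does not overlap that of start 3, but both leave out the error of the expected pileup. Start 2 was in no peak itself, with peaks on either side at folds of 2.79, 3.10 and 2.45. The last peak of the gene stood 54533 bp beyond start 3 with a fold of 2.75. Reads per transcript were not analysed, so which start was in use is not known.

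MXD1 (chromosome 2, 69915109 to 69942945, plus strand), a repressor induced as cells differentiate, had a peak on its start with a fold of 3.5 (2.72 to 4.43) and a peak just upstream with 2.97 (2.36 to 3.70). The third, 24715 bp inside the gene, had the highest fold of the 3, 4.51 (2.98 to 6.58), on 25 fragments. MXD4 (chromosome 4, 2247432 to 2262109, minus strand) had an RNaseH1 peak of 1875 bp over its start (2261205 to 2263079), with a fold of 3.10 (2.45 to 3.87). Inside it lay the other REXO4 peak of the members (2261734 to 2262165), with a fold of 2.05 (1.69 to 2.46), 112 fragments against an expected 54.1 and a q of 3.13e-08. The REXO4 summit was 178 bp and the RNaseH1 summit 145 bp downstream of the start. By fold this REXO4 peak also stood below the list's median, as 37.3% of the list had as low a fold, and by q it was 484 of 1460. REXO4 peaks of the list at a start, with chromosome 8 left out, had a median fold of 2.03, near that of MXD4. The flank peak of MXD4, with a fold of 3.73 (3.16 to 4.39), had its summit within 1 kb of boundaries of POLN and HAUS3.

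MNT (chromosome 17, 2384073 to 2401060, minus strand), the antagonist that is present in cycling as well as resting cells, had the widest RNaseH1 peak of the members and the one of highest fold, while the lowest q of any member peak, 1.66e-36, was that of the flank peak of MXD4. The peak across its start (2399269 to 2402289) was 3021 bp wide, as wide as only 34 of the 54623 peaks of the list, itself included. Its fold was 4.53 (3.74 to 5.43), with 114 fragments against an expected 24.4 and a q of 3.09e-36. A peak of 1892 bp with its summit 8363 bp inside the gene had a fold of 4.94 (4.03 to 5.99), above 96.9% of the list. Between them stood peaks of 2.70 (1.92 to 3.69) and 3.18 (2.42 to 4.10), and further in 1 of 2.14 (1.33 to 3.29) with a q of 0.0445, the largest q of any member peak. MNT had no REXO4 peak, and the nearest lay 323230 bp away.

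**Figure D4:**
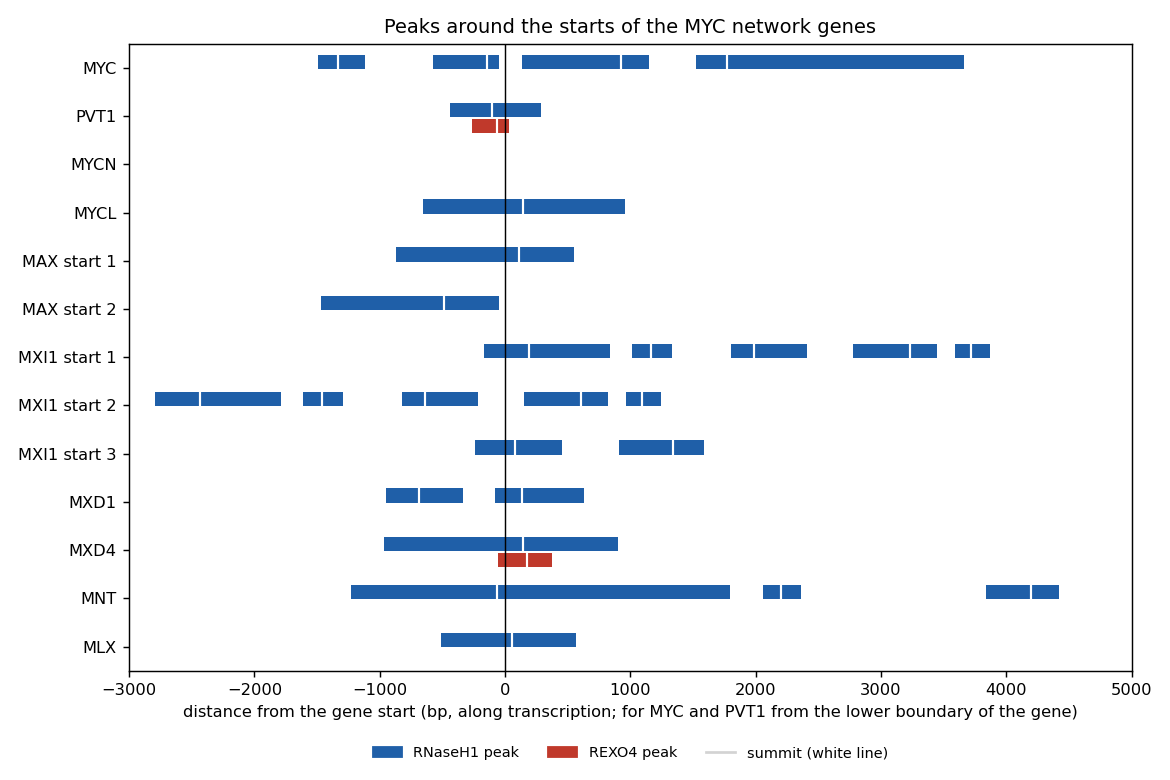
RNaseH1 peaks (upper bars) and REXO4 peaks (lower bars) by distance from each annotated start (x axis, bp along transcription), for MYC and PVT1 from the lower boundary of the gene. White lines are summits, 8 of the 11 starts from the promoter table lie inside an RNaseH1 peak, and the REXO4 bars at PVT1 and MXD4 lie inside RNaseH1 bars.

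At most starts of the promoter table that an RNaseH1 peak covered, its summit lay just downstream. A peak covered 8 of the 11 starts in the promoter table, and 53.0% of 22049 starts of protein-coding genes. The summit was downstream of the start in 7 of these 8 cases, with MNT as the exception. The distances ran from -63 bp to 188 bp, with a median of 122.5 bp. At the lower boundaries of the chromosome 8 genes the nearest summits lay upstream, at -104 bp for PVT1, where a peak covered the boundary, and at -145 bp for MYC, where none did. Over the 7164 peaks of the list that cover a single start, 71.9% had the summit downstream, at a median of 94 bp with quartiles of -16 and 200 bp, a range that holds all but 1 of the members' distances. Member peaks within 1 kb of a start had a median fold of 3.10, and those elsewhere in the genes had 3.01, but the expected pileups were 25 and 8.33 fragments and the widths 717 and 293 bp. The list on the main chromosomes other than 8, for which the promoter table holds no start, showed a like split. Its folds were 3.02 at starts and 3.08 away from them, with expected pileups of 22.6 and 5.95 and widths of 710 and 323 bp.

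Ordered by their highest RNaseH1 fold, the members ran MNT (4.94), MXD1 (4.51), MXI1 (4.36), MYCL (4.17), MAX (3.94), MYC (3.81), MXD4 (3.73), PVT1 (3.25) and MLX (3.07). The intervals of all 8 neighbouring pairs overlapped, and so did those of all 36 pairs, which does not show that the folds are alike. The highest peaks of MYC, MXD4 and MLX were flank peaks beside CASC11, POLN and HAUS3, and PSMC3IP. With 1 kb around the gene, the highest folds of MYC, MXD4 and MLX were 3.35 (2.81 to 3.96), 3.10 (2.45 to 3.87) and 2.36 (1.86 to 2.96). None of these intervals overlapped that of MNT (4.03 to 5.99). They leave out the error of the expected pileup, so a difference from MNT is not shown. Of the 45 peaks, 4 were in the upper 10% of the list by fold, which is near the share of the list itself. They were 2 at MNT and 1 each at MXD1 and MXI1. At the edge of the 10 kb window, the farthest peak inside lay 8818 bp from MYCL with a fold of 3.10, and the nearest outside lay 10166 bp from MYC with a fold of 2.36.

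Both REXO4 peaks of the members overlapped an RNaseH1 peak, and 71.5% of the whole REXO4 list did. With 2 peaks this share says little. The summits of the pair at MXD4 were 33 bp apart and those of the pair at PVT1 42 bp. At both sites the expected pileup of the REXO4 peak was above the median of its list, which was 36.6. Over REXO4 peaks at a start, with chromosome 8 left out, the median was 50.4, beside 54.1 at MXD4 and 110.4 at PVT1.

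The other genes of the pathway had RNaseH1 peaks throughout. In the gene and 10 kb around it, all 4 other MAX and MLX network genes, all 14 MYC cofactor genes, all 12 genes of MYC turnover and all 18 classic MYC target genes had a peak, beside the 85.1% of protein-coding genes. The median of the highest folds was 3.80, 4.02, 3.54 and 3.49 in these lists, and 3.94 over the members with a peak. Each fold below is the highest in the gene and 10 kb around it, so it can come from a peak beside another gene. Of the MAX and MLX network genes, MGA, a MAX partner with a T-box domain, had 4.54 (2.75 to 7.12), MLXIP 4.46 (3.74 to 5.29) and MLXIPL 3.14 (1.93 to 4.86). Of the cofactors, the ATPase gene RUVBL1 had 5.38 (4.14 to 6.87), ZBTB17, which encodes the MYC partner MIZ1, had 5.26 (4.36 to 6.30), and the corepressor gene SIN3B had 4.85 (3.96 to 5.88). Of the turnover genes, the ubiquitin ligase gene STUB1 had 5.21 (4.57 to 5.92), GSK3B, whose kinase marks MYC for degradation, had 5.08 (4.24 to 6.03), and PIM1, a kinase gene, had 4.39 (3.53 to 5.40). Of the targets, ODC1, of polyamine synthesis, had 4.60 (3.17 to 6.47), NPM1, of the nucleolus, 4.32 (2.94 to 6.13) and CAD, of pyrimidine synthesis, 4.13 (2.98 to 5.59).

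REXO4 peaks lay at 3 of these 48 genes. SRM, a spermidine synthase gene and MYC target, had one 7 bp downstream of its start, with a fold of 2.00 (1.68 to 2.36). The other 2 lay outside the gene, in the flank beyond its end. That of SIN3A, the corepressor gene of the MXD proteins, was 83314 bp beyond the start, with 1.79 (1.48 to 2.15). That of NPM1 was 31792 bp beyond the start, with 2.61 (1.94 to 3.43), and is lost with 1 kb around the gene. All 3 overlapped RNaseH1 peaks. None of the 4 MAX and MLX network genes and none of the 12 turnover genes had one, and 7.01% of protein-coding genes did.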

How the data were processed

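Per the labels, Flag ChIP was made from formaldehyde-fixed U2OS cells. MACS2 2.1.0.20150731, deepTools 3.5.1, SAMtools 1.17, HISAT2 2.2.1, Trim Galore 0.6.10 and Cufflinks, with hg38, come from the submitters' processing notes. No source names the control, the libraries entered or the threshold. The deposited peak names carry the label ChIPseq2, and whether a list rests on replicate 2 alone or on both replicates is not known. The authors deposited 1 peak list per protein, with a fold enrichment (a ratio), a −log10 p and a −log10 q per peak. The deposited peak score was not used. REXO4 peaks reached a q of 0.179 and RNaseH1 peaks one of 0.198.

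Genes and promoters came from RefSeq tables of GRCh38.p14. Of 59792 genes, 831 without a usable position were left out. The tables give no exons, so exons, introns and UTRs were not told apart. An overlap was at least 1 bp. Fragments were recovered as the whole number whose Poisson tail gives the deposited p at the deposited fold, within 0.05 fragments, for 1459 of 1460 REXO4 peaks and all 54623 RNaseH1 peaks, and this step was tested on simulated data. The members, lists and tests were chosen with earlier results of these data known. Named genes were all members, in each other list the 3 of highest RNaseH1 fold and every gene with a REXO4 peak, and genes of the MYC and PVT1 region with a peak. Genes of that region without a peak, and neighbours of peaks, were named after their values were seen. Computation used pandas 2.3.3, SciPy 1.17.1 and NumPy 2.4.6 under Python 3.11.15, and plots used matplotlib 3.10.9.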

Additional observations from a re-analysis of the deposited data

How the results depend on the processing

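The counts were recomputed with other windows, overlaps and thresholds. Of 71 recomputed values, 56 stayed within 1.5 times the value reported. Counts of 0 could not fall and counts that took in a whole list could not rise, so the tally is no measure of stability. The 9 members with an RNaseH1 peak stayed 9 in the gene alone, in 1 kb around it and at a q of at most 1e-05. They became 10 with 50 kb around the gene. At these 4 settings, in this order, 76.6%, 78.5%, 73.8% and 93.3% of protein-coding genes had an RNaseH1 peak. With the RNaseH1 list cut to its 1460 peaks of lowest q, or to its 1460 of highest fold, 0 members had one, and 8.18% and 5.65% of protein-coding genes did. The 45 member peaks became 76 with 50 kb around the genes, and 29 either at a q of at most 1e-05 or without MYC and PVT1. At that q the region of MYC and PVT1 held 13 RNaseH1 and 0 REXO4 peaks. With MYC, PVT1 and 10 kb around each in place of the whole region it held 16 and 1. REXO4 counts are small: at a q of at most 1e-05, or without MYC and PVT1, 1 member and 1 peak remained in place of 2. At that q 1 member had a REXO4 peak at its start. Of protein-coding genes, 3.59% had a REXO4 peak of that q in the gene and 10 kb around it. At starts, 2.22% of such genes in the promoter table had one. With 1 kb around the genes, 1 classic MYC target gene had a REXO4 peak, beside 5.5% of protein-coding genes. The highest fold of MXD4 was 3.10 with 1 kb around the gene. Thresholds added after seeing the data left 41.9% of MYC covered and between 26.9% and 28.6% of MNT.

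No paired analysis was possible because the files hold 1 value per peak and none per library. Each peak's precision is limited by its fragments, and replicates could not be left out in turn.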
